A study of Mus musculus with 4 samples.

Results

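Cx3cr1, Selplg, Adgre1, Entpd1 and Cd34 encode proteins of the cell surface, and they were followed here as 5 of the 397 genes of a targeted immune panel. They were chosen by name as surface genes of resting (homeostatic) microglia. Single cells were prepared from the right hemisphere of the brain of 9-month-old male mice, after the cerebellum and olfactory bulb had been taken off. Both groups carried the 5XFAD transgenes, which are driven in neurons by the Thy1 promoter, so that every mouse was a model of amyloid deposition and no mouse without the transgenes was compared. One group lacked Abi3 in every cell of the body (5XFAD;Abi3-/-, 2 mice) and the other had both copies (5XFAD;Abi3+/+, 2 mice). Values of a pair of mice are given in the order mouse 1, mouse 2. Each mouse gave 1 library, and Abi3 itself was not analysed here, so the genotype labels were not checked by the deleted gene.

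Microglia are the resident macrophages of the brain. Cx3cr1 is the receptor for fractalkine, a chemokine presented by neurons. Selplg encodes PSGL-1, the ligand through which leukocytes bind selectins, and Cd34 encodes a sialomucin of stem cells and endothelium. Adgre1 encodes F4/80, the adhesion receptor long used to stain mouse macrophages, and Entpd1 encodes CD39, the ectoenzyme that removes phosphate groups from extracellular ATP and ADP. Around amyloid plaques microglia take on a state named disease-associated microglia (DAM), in which Apoe, Cst7 and Itgax are raised and several resting genes are lowered.

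Of 21172 barcodes, 13820 had 40 or more genes with a read and were within the study's upper limit on total reads, and these were kept, between 2321 and 4499 in each mouse. The median kept cell held between 19648 and 24283 panel reads. Microglia were defined without any of the 5 genes, as cells with a Trem2 read that met no gate for another cell type. There were 13051 of them, between 93.3% and 96.3% of the kept cells of a mouse, and at least 99.7% of them in each mouse had a read of C1qa, a complement gene of microglia. They were divided by how many of the DAM genes Apoe, Cst7 and Itgax had a read, which gave 5047 cells with 0, 3744 with 1, 2443 with 2 and 1817 with 3. Another 99 cells were macrophages, 315 were T cells and 53 were B cells. Between 6 and 18 barcodes were shared by any 2 libraries.

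On the mouse genome build GRCm38 (mm10), Cx3cr1 lies on chromosome 9 from 120048683 to 120068296. Selplg lies on chromosome 5 from 113817798 to 113832528, and Adgre1 on chromosome 17 from 57358581 to 57483529. Entpd1 lies on chromosome 19 from 40612366 to 40741602, and Cd34 on chromosome 1 from 194938821 to 194961292. The 250 bases before the pair of annotated RefSeq start sites of Entpd1 (GRCm38.p6, + strand) are shown, at chr19:40612116-40612365 and chr19:40659520-40659769. Capitals mark the letters GAGGAA, part of the motif that the myeloid factor PU.1 is known to bind, searched on both strands.
Entpd1, upstream start: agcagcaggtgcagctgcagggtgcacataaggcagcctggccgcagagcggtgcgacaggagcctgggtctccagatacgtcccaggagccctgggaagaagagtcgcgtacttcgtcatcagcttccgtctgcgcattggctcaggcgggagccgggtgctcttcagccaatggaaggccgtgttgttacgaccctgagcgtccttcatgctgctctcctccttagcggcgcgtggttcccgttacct
Entpd1, downstream start: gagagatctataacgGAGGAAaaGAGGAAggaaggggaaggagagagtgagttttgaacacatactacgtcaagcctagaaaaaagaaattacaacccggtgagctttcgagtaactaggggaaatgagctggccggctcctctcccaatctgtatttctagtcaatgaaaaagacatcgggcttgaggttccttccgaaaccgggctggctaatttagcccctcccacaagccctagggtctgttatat
The downstream window held 2 matches, both on the given strand, and the upstream window held 0. The same windows of Cx3cr1 and Cd34 held 0 matches, and Selplg and Adgre1 had no window in the set used. Of 32851 mouse promoter windows of 250 bases, 23.3% held at least 1 match. That share is for a single window, whereas Entpd1 was searched in 2. The panel's reads do not tell which start was used, and a part of PU.1 in the levels was not tested.

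The first question was how the 5 genes followed the DAM genes within microglia. As a share of panel reads, Cx3cr1, Selplg and Entpd1 were lower with each added DAM gene in each of the 4 mice. On that scale Adgre1 was lower in each mouse only from the second one on, and Cd34 stayed within a narrow range. On mean reads per cell Entpd1 rose from 127.9 to 132.7 between 2 and 3 DAM genes in Abi3-/- mouse 1. It also rose from 140.2 to 141.9 between 0 and 1 in Abi3+/+ mouse 2. Levels are CPM, the reads of a gene in every 1000000 panel reads of a class in a mouse, a scale that compares a gene between classes and not one gene with another, since each panel gene has its own primers. Cells with more DAM genes were also deeper. The median reads of cells with 0 DAM genes were between 16492 and 20574 in the 4 mice, against 32899 to 36146 in cells with 3.

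Cx3cr1 stood at 8231 and 7527 CPM in cells with 0 DAM genes of the Abi3-/- pair, and at 9813 and 5083 in those of the Abi3+/+ pair. In cells with 3 DAM genes it stood at 4133 and 2568 in the Abi3-/- pair, and at 2575 and 1544 in the Abi3+/+ pair. Every mouse was lower in the cells with 3 DAM genes, and Abi3+/+ mouse 2 had the lowest level in both classes. The mean difference was -1.55 ± 0.40 on the log2 scale (SD, n = 4 mice). The share of cells with a Cx3cr1 read differed by -14.9 ± 7.3 percentage points (SD, n = 4), most in Abi3+/+ mouse 2, from 82.95% to 59.1%. With every cell thinned to 10000 reads, that mouse went from 83.03% to 59.3%. Its cells with a Cx3cr1 read held at least 11 of them before thinning, so thinning could seldom remove all of them. The thinned shares therefore cannot tell whether depth had a part in this difference.

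Selplg, the PSGL-1 gene, was the most evenly detected of the 5 genes, with a read in at least 99.8% of the cells with 0 DAM genes in each mouse and in at least 95.3% of those with 3. What differed was its level. In the Abi3-/- pair it stood at 58315 and 40485 CPM with 0 DAM genes, and at 28104 and 12963 with 3. In the Abi3+/+ pair the same classes stood at 52601 and 41385, and at 12801 and 12193. The classes did not overlap in any pair of mice, and Abi3-/- mouse 1 kept the highest level with 3 DAM genes. The mean difference was -1.62 ± 0.42 on the log2 scale (SD, n = 4).

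Entpd1, the CD39 gene, stood at 6632 and 4955 CPM with 0 DAM genes in the Abi3-/- pair and at 7963 and 6629 in the Abi3+/+ pair. With 3 DAM genes it stood at 3606 and 2190, and at 2649 and 2832. The classes did not overlap. The mean difference was -1.22 ± 0.29 on the log2 scale (SD, n = 4), and cells with a read were a smaller share in each of the 4 mice, with a mean difference of -11.4 ± 5.2 percentage points.

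In CPM, Adgre1, the F4/80 gene, was split by mouse. In the Abi3-/- pair it stood at 6239 and 6234 CPM with 0 DAM genes, at 7024 and 6568 with 1, and at 4845 and 4023 with 3. In the Abi3+/+ pair it stood at 9191 and 10278 with 0, at 8537 and 9375 with 1, and at 3616 and 4216 with 3. In CPM the step from 0 to 1 DAM gene therefore went up in both Abi3-/- mice and down in both Abi3+/+ mice, while the later steps went down in each mouse. On mean reads per cell the step from 0 to 1 went up in each of the 4 mice, so the split depends on the scale. It went from 133 to 168 and from 108 to 129 in the Abi3-/- pair, and from 173 to 180 and from 217 to 227 in the Abi3+/+ pair. From 0 to 3 the mean difference in CPM was -0.91 ± 0.49 on the log2 scale (SD, n = 4).

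On the CPM scale Cd34 differed least between the classes. It stood at 7146 and 8897 CPM with 0 DAM genes in the Abi3-/- pair and at 5830 and 8616 in the Abi3+/+ pair. With 3 DAM genes it stood at 7135 and 6394, and at 5500 and 6856. The classes overlapped, and the mean difference was -0.22 ± 0.22 on the log2 scale (SD, n = 4). Its share of cells with a read was higher with 3 DAM genes in each mouse, most in Abi3+/+ mouse 1, from 73.5% to 83.7%.

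**Figure D1:**
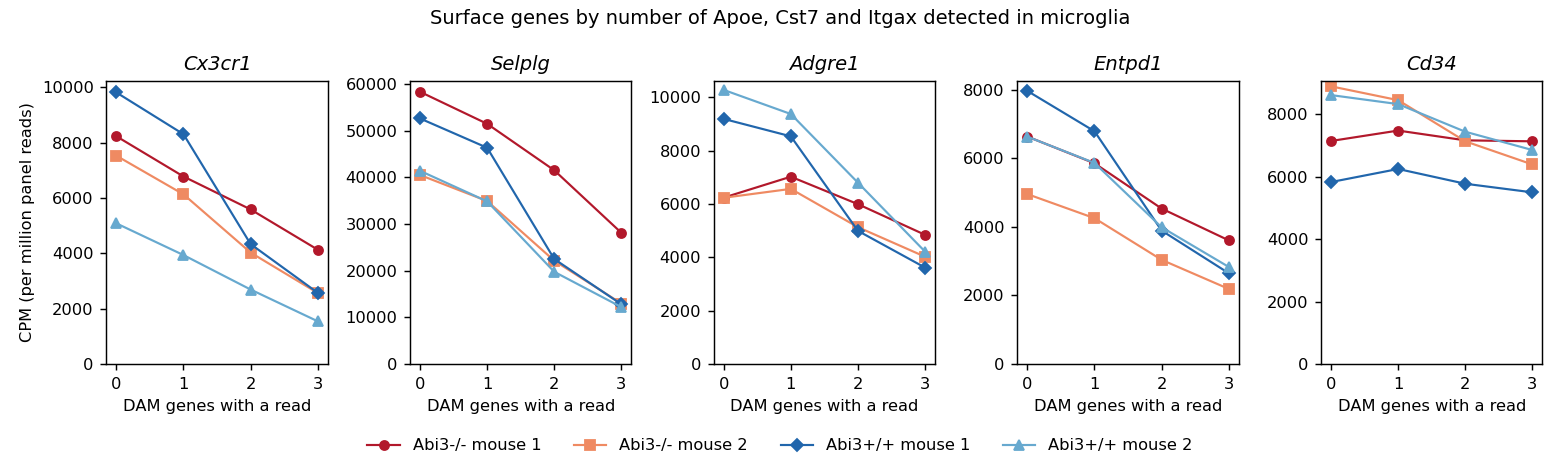
CPM (vertical axes, linear and starting at 0) of each of the 5 genes in microglia with 0, 1, 2 or 3 DAM genes with a read (horizontal axes). Each line is 1 mouse. The lines of Cx3cr1, Selplg and Entpd1 go down at every step, those of Adgre1 divide at the first step, and those of Cd34 stay between 5500 and 8897.

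In the edgeR quasi-likelihood test on reads summed per mouse and class, scaled by TMM (trimmed mean of M values) and with the mouse as a block, 162 of 295 panel genes passed an adjusted p of 0.05 between 3 and 0 DAM genes, which is 54.9%, with 26.8% higher and 28.1% lower. All 5 genes were among them, so being called set them little apart from the panel. Selplg had a log2 fold change of -1.05 with a standard error of 0.10 (adjusted p = 2.6e-06), Cx3cr1 one of -0.97 with 0.09 (adjusted p = 2.6e-06) and Entpd1 one of -0.65 with 0.06 (adjusted p = 1.7e-06). Adgre1 had one of -0.34 with 0.11 (adjusted p = 0.019), and Cd34 one of 0.35 with 0.09 (adjusted p = 0.0059). The median of all tested genes was -0.14 on this scale. The test for a change per DAM gene over all 4 classes called the same 5 genes in the same directions, with log2 changes per gene from -0.36 for Selplg to 0.12 for Cd34, where 56.9% of the panel was called, 25.4% as higher and 31.5% as lower.

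Between 3 and 0 DAM genes, the direction or call depends on the scale for 2 of the genes, and the size for all 5. Without TMM, on library size alone, the median of all tested genes was -0.71, and Cd34 turned to -0.22 (adjusted p = 0.017), so that its direction is set by the scaling. Without Abi3+/+ mouse 1 its TMM-scaled fold change went from 0.35 to 0.21 (adjusted p = 0.034). On mean reads per cell, which credits deeper cells with more RNA, Cd34 was higher in the cells with 3 DAM genes in each of the 4 mice, by 0.64 ± 0.21 on the log2 scale (SD, n = 4). Adgre1 lost its call with the DAM genes left out of the scaling (adjusted p = 0.18), in DESeq2 (0.11), per cell (0.86), without Abi3+/+ mouse 1 (0.11) and without Abi3+/+ mouse 2 (0.19). Cx3cr1, Selplg and Entpd1 were lower and called under each of the 14 alternatives tried, but by smaller amounts on mean reads per cell, with -0.68 ± 0.36, -0.76 ± 0.37 and -0.35 ± 0.25 on the log2 scale (SD, n = 4).

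**Figure D2:**
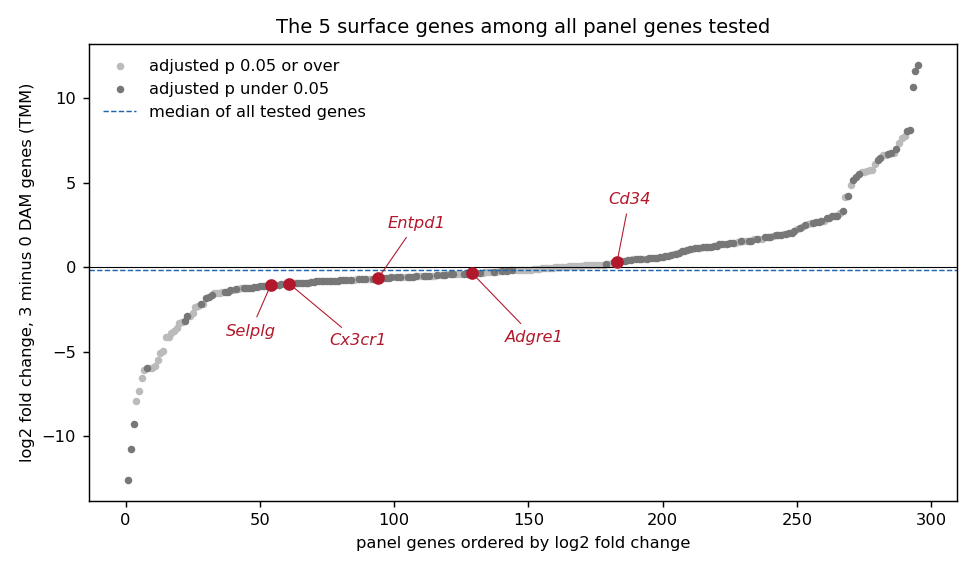
The 295 panel genes tested, ordered by the TMM-scaled log2 fold change of cells with 3 DAM genes over cells with 0 (vertical axis). Points are genes, the 5 surface genes are named with bars of 95% confidence that are mostly shorter than the points, and the dashed line is the median of all genes at -0.14. Cd34 alone of the 5 sits above that line.

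The ratio of 2 genes within the same cells needs no scaling. From 0 to 3 DAM genes, the log2 ratio to Cd34 differed by -1.33 ± 0.39 for Cx3cr1, by -1.40 ± 0.40 for Selplg, by -0.99 ± 0.35 for Entpd1 and by -0.68 ± 0.51 for Adgre1 (SD, n = 4 mice each). Each of these 4 ratios was lower in each of the 4 mice. Cx3cr1 and Selplg kept nearly the same ratio to each other, with a difference of 0.08 ± 0.03. An exact sign test over 4 mice cannot pass 0.05, so these ratios are given as values.

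**Figure D3:**
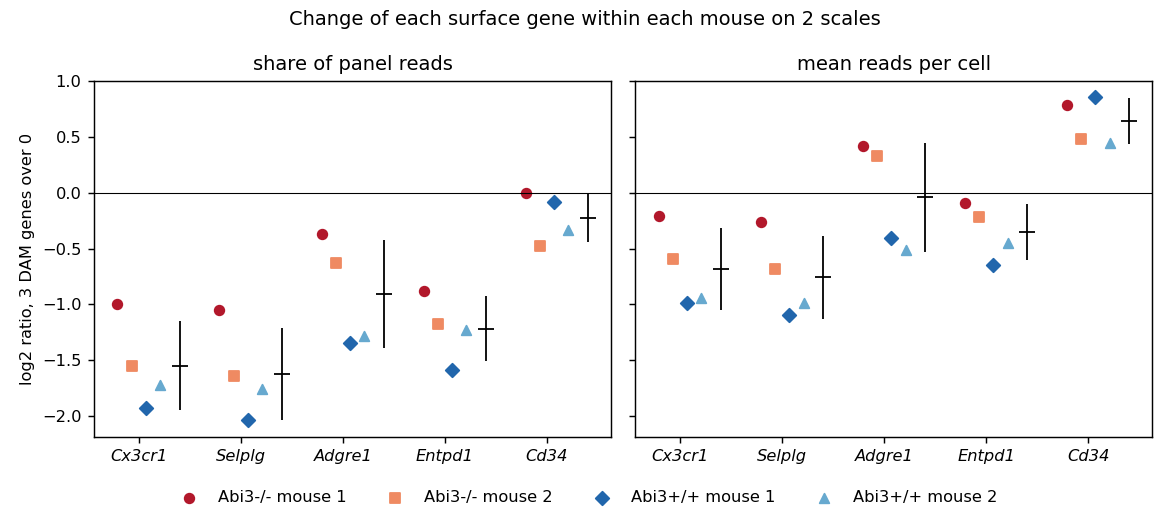
Log2 ratio of cells with 3 DAM genes over cells with 0 within each mouse (points), as a share of panel reads (left) and as mean reads per cell (right), with mean and SD in black. On both scales Cx3cr1, Selplg and Entpd1 are below 0 in each mouse. Per cell, Adgre1 is above 0 in both Abi3-/- mice and below 0 in both Abi3+/+ mice, and Cd34 is above 0 in each mouse.

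On the CPM scale, Cx3cr1, Selplg and Entpd1 were lower in cells with a single DAM gene than in cells with none. In cells with Cst7 alone, Cx3cr1 was lower than in cells with none in each mouse, with a difference of -0.39 ± 0.07 on the log2 scale (SD, n = 4), and so was Entpd1, with -0.33 ± 0.02. In cells with Apoe alone the differences were -0.26 ± 0.08 for Cx3cr1 and -0.17 ± 0.04 for Entpd1, and with Itgax alone they were -0.31 ± 0.06 and -0.18 ± 0.07. Selplg was lower in each mouse as well, with -0.16 ± 0.08 for Apoe alone, -0.27 ± 0.10 for Cst7 alone and -0.26 ± 0.12 for Itgax alone. On mean reads per cell this order held in each mouse for Cx3cr1 with Apoe alone or Cst7 alone and for Entpd1 with Cst7 alone, and it failed in 1 or more mice for the others, so it depends on the scale there. In CPM Adgre1 was lower with Cst7 alone in each mouse, with -0.11 ± 0.08, and had no common direction for Apoe alone or Itgax alone. On mean reads per cell Adgre1 was higher in each mouse with Apoe alone, Cst7 alone or Itgax alone, so its direction depends on the scale. Cd34 differed in no common direction in CPM for Cst7 alone, with -0.0024 ± 0.0916, and was higher in each mouse on mean reads per cell.

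Pairs of DAM genes were not alike. Selplg stood at 41011 and 20579 CPM in the cells with Apoe and Cst7 but no Itgax of the Abi3-/- pair, and at 18704 and 16954 in those of the Abi3+/+ pair. In cells with Apoe and Itgax but no Cst7 it stood at 44444 and 27114, and at 35783 and 24188, higher in each mouse. Adgre1 followed the same order, with 5643 and 4404 against 6817 and 6755 in the Abi3-/- pair, and with 3771 and 5448 against 8558 and 9037 in the Abi3+/+ pair. The rarest pair was Cst7 and Itgax without Apoe, with 36 to 145 cells in a mouse. No test was made between pairs.

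Few cells lacked most of these genes together. With 0 DAM genes, between 0.254% and 1.60% of the microglia of a mouse had a read of 2 or fewer of the 5 genes, and with 3 DAM genes between 3.12% and 9.84% did. A read of all 5 was found in 64.7% and 60.96% of the cells with 0 DAM genes of the Abi3-/- pair, and in 62.2% and 59.5% of those of the Abi3+/+ pair. With 3 DAM genes the shares were 69.5% and 53.6%, and 47.1% and 32.4%. Abi3-/- mouse 1 alone did not go down.

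Smaller sets of microglia were also compared. Microglia with 2 or more MHC class II genes numbered 43 to 233 in a mouse, and against other microglia they had less Selplg in each mouse, with a log2 difference of -0.82 ± 0.36, and less Cx3cr1, with -0.75 ± 0.27 (SD, n = 4). Microglia with 2 or more of the cycling genes Top2a, Mki67, Aurkb and Ube2c numbered 10 to 42. In these Cd34 was higher in each mouse, by 0.87 ± 0.26, with 15288 and 12611 CPM in the Abi3-/- pair and 12600 and 11935 in the Abi3+/+ pair. Adgre1 was lower there in each mouse, with -1.02 ± 0.31, and Selplg was higher, by 0.37 ± 0.26.

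The second question was how far the genes set microglia apart from other immune cells. Cd34 separated them most widely from macrophages, which were cells with 2 or more of Cd163, Clec10a, F13a1, Ccr2 and Fcna. Between 76.4% and 90.2% of the microglia of a mouse had a Cd34 read. Among macrophages 0 of 16 and 4 of 39 did in the Abi3-/- pair, and 0 of 17 and 0 of 27 in the Abi3+/+ pair, where the counts of 0 allow shares of up to 18.8%, 17.6% and 11.1% (3 cells of the total, where the exact 95% intervals reach 20.6%, 19.5% and 12.8%). The macrophages were not shallow, with median reads between 32508 and 44123. Their Cd34 level was 153 CPM in Abi3-/- mouse 2, against 7655 in its microglia.

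Adgre1 and Selplg had a read in most macrophages of each mouse. Adgre1 had one in 62.5% and 69.2% of the macrophages of the Abi3-/- pair and in 52.9% and 77.8% of those of the Abi3+/+ pair. Its level there was 3488 and 3085 CPM, and 3208 and 9118, against 5421 to 8400 in microglia, so that Abi3+/+ mouse 2 was higher in macrophages and the others lower. Cx3cr1 had a read in 23.5% to 31.2% of the macrophages of a mouse, against 76.2% to 94.4% of microglia. Selplg had a read in 79.5% to 88.2% of macrophages and Entpd1 in 38.5% to 56.2%, while C1qa had one in 23.1% to 55.6%. In macrophages the ratio to C1qa was 0.0186 to 0.0837 for Cx3cr1 and 0.0513 to 0.130 for Entpd1, against the 0.0474 to 0.111 and 0.0615 to 0.0920 of microglia. For Selplg it was 0.209 to 0.850, against 0.390 to 0.596 in microglia. For Adgre1 it was 0.223 to 0.564, against 0.0810 to 0.111. The part of free microglial RNA in these reads was not tested.

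In the edgeR test of macrophages against microglia, 38.7% of 333 panel genes were called, 24.3% as lower. Selplg (log2 fold change -3.49, standard error 0.25, adjusted p = 5.7e-05), Entpd1 (-2.85, 0.32, adjusted p = 0.00044) and Cd34 (adjusted p = 0.0052, its fitted fold not given because 3 libraries were at 0) were lower, against a median of -1.25 over all tested genes. Cx3cr1 had a log2 fold change of -3.98 with a standard error of 1.38 and missed the threshold (adjusted p = 0.051). Adgre1 had one of -1.30 with 0.66 (adjusted p = 0.16). Cx3cr1 passed in DESeq2 (adjusted p = 0.026), in limma (3.4e-05) and without Abi3+/+ mouse 2 (0.016), and over all alternatives its adjusted p ran up to 0.21. The test compares few macrophages, 16 to 39 in a mouse.

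T cells kept Selplg and, in part, Entpd1. Selplg had a read in 91.6% and 82.4% of the T cells of the Abi3-/- pair and in 94.5% and 91.1% of those of the Abi3+/+ pair, at 8946 to 13299 CPM. Entpd1 had a read in 32.6% and 23.5%, and in 23.3% and 27.8%. For Cx3cr1, Adgre1 and Cd34 the shares were at most 8.22%, 5.88% and 5.88%. The median T cell held 15231 to 17450 reads in a mouse. C1qa, which T cells should lack, had a read in 6.32% to 17.6% of them, and in each mouse those 3 low shares were below its share. The ratio of Selplg to C1qa was 2.24 to 19.2 in T cells and 0.390 to 0.596 in microglia. For Entpd1 the ratio was 0.169 to 1.98 in T cells and 0.0615 to 0.0920 in microglia. For Adgre1 it was 0.0312 to 0.212 and 0.0810 to 0.111, and for Cd34 0.0652 to 0.316 and 0.0861 to 0.133, so that both ranges in T cells enclose those of microglia, on 1 to 4 T cells with a read in a mouse.

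Among T cells with a Cd8a read, numbering 44 to 70 in a mouse, Entpd1 had a read in 35.7% and 31.8% in the Abi3-/- pair and in 20.4% and 29.2% in the Abi3+/+ pair. Among T cells without one, 19 to 31 in a mouse, the shares lay between 8.33% and 31.6%. The order of the 2 kinds differed between mice. Taking T and B cells together, all 5 genes were lower than in microglia in the edgeR test, which called 59.2% of the panel, with 90 of 333 genes lower and 32.1% higher. The log2 fold changes were -2.55 for Selplg (adjusted p = 0.00012) and -3.34 for Entpd1 (adjusted p = 0.00012), and -5.45 or lower for the others.

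**Figure D4:**
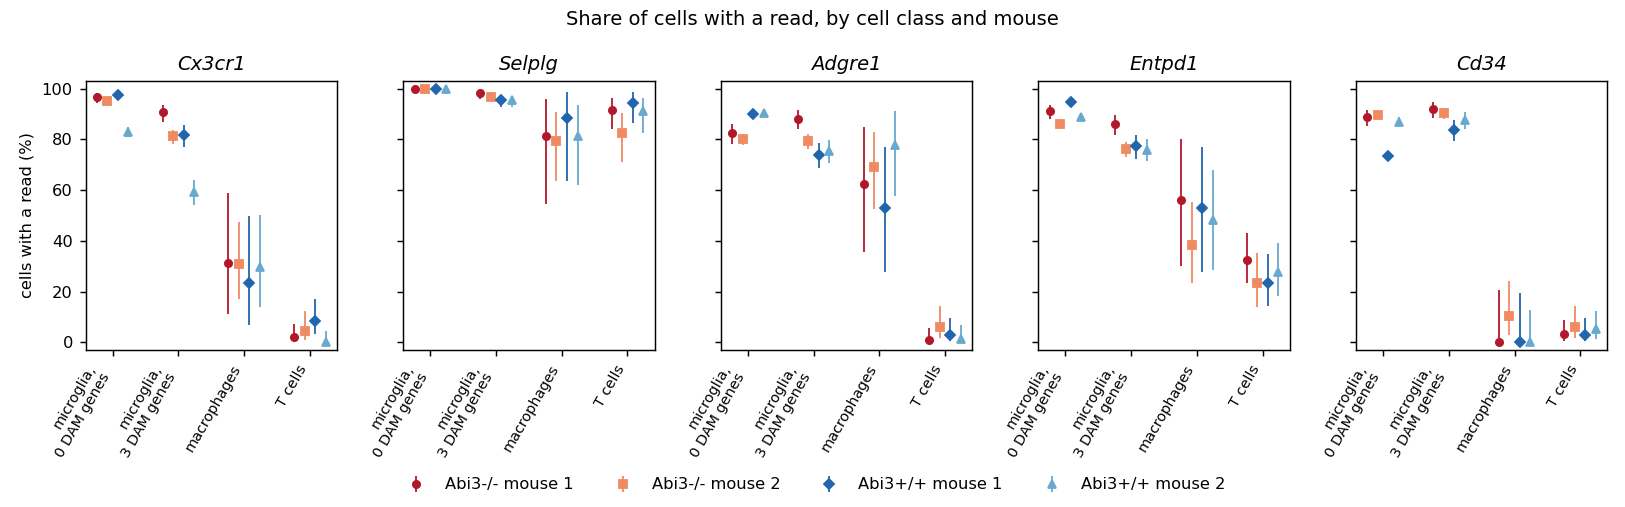
Percentage of cells with a read of each gene (vertical axis) in microglia with 0 and 3 DAM genes, macrophages and T cells. Points are mice and bars are exact 95% binomial intervals, which cover counting error only. Selplg stays at 79.5% or more in all these classes, while Cd34 is at 10.3% or less in macrophages and T cells.

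The third question was the genotype, compared over mice. In all microglia together, Adgre1 was lower in both Abi3-/- mice (6151 and 5421 CPM) than in both Abi3+/+ mice (7586 and 8400). The groups lay furthest apart in the cells with 0 DAM genes, at 6239 and 6234 against 9191 and 10278. In cells with 3 DAM genes they overlapped. Entpd1 in all microglia was likewise lower in both Abi3-/- mice, at 5104 and 3541 CPM against 6280 and 5334. For both genes the exact permutation p over mice was 0.333, the lowest that 2 against 2 mice allow. The share of panel genes separated in this way was not counted. In edgeR the Adgre1 difference among cells with 0 DAM genes was -0.60 on the log2 scale with a standard error of 0.11 (adjusted p = 0.38). edgeR called 0 of 265 genes there (0% of the panel, 32 at an unadjusted p under 0.05), and DESeq2 called 15, Adgre1 among them (adjusted p = 0.011). Over all alternatives the adjusted p of Adgre1 ran from 0.011 to 0.99, and its direction was the same in each.

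None of the 5 genes was called for genotype by edgeR in all microglia or in the cells with 0 or 3 DAM genes. In all microglia it called 0 of 307 genes (20 at an unadjusted p under 0.05), where DESeq2 called 9. In cells with 3 DAM genes edgeR called 0 of 257 (9 at an unadjusted p under 0.05), where DESeq2 called 0. The log2 fold changes there were 0.60 for Selplg and 0.59 for Cx3cr1 (adjusted p = 0.91 for each). Those of the other genes lay between -0.016 and 0.10. Leaving out each mouse moved Selplg from 0.11 to 0.98 and Cx3cr1 from 0.23 to 1.07. Cx3cr1 in all microglia stood at 6084 and 4944 CPM in the Abi3-/- pair and at 7555 and 3775 in the Abi3+/+ pair, so that the Abi3+/+ pair enclosed the other. Its log2 fold change was 0.15, with a 95% interval from -0.93 to 1.24. Entpd1 stood at 5104 and 3541 against 6280 and 5334, which did not overlap. Selplg stood at 44642 and 26926 against 40704 and 31064, which did. Cd34 had a read in 90.2% and 88.8% of microglia of the Abi3-/- pair and in 76.4% and 86.99% of those of the Abi3+/+ pair. For these shares the exact two-sided permutation test over 2 against 2 mice cannot go below p = 0.333, so none can pass. Without Abi3+/+ mouse 1 the Cd34 difference went from 7.85 to 2.54 percentage points.

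Whether the change from 0 to 3 DAM genes itself differed by genotype was tested as an interaction. On the log2 CPM scale, Adgre1 differed by -0.36 and -0.63 in the Abi3-/- pair and by -1.35 and -1.29 in the Abi3+/+ pair, which did not overlap. The share of panel genes without overlap in this change was not counted. The edgeR interaction was 0.62 with a standard error of 0.16 (adjusted p = 0.12), in a test that called 4 of 281 genes (1.42%). It passed in DESeq2 (adjusted p = 0.0051), with the DAM genes left out of the scaling (0.044) and per cell (0.020), and over all alternatives its adjusted p ran from 0.0051 to 0.60. The other 4 genes had interactions between -0.23 and 0.36, with adjusted p of 0.51 or more in edgeR. Leaving out each mouse moved them from 0.25 to 0.53 for Cx3cr1, 0.23 to 0.55 for Selplg, 0.087 to 0.35 for Entpd1 and -0.36 to -0.022 for Cd34, with adjusted p of 0.18 or more. The values for Cx3cr1 and Selplg were highest without Abi3-/- mouse 2, and those for Entpd1 and Cd34 were nearest 0 without Abi3+/+ mouse 1.

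The share of microglia with 0 DAM genes was 18.05% and 31.1% in the Abi3-/- pair and 52.0% and 48.06% in the Abi3+/+ pair, and the pairs did not overlap. A level over all microglia therefore carries a make-up that moves with genotype, and its part in the genotype differences over all microglia was not tested. Within the class with 0 DAM genes, Cx3cr1 of Abi3+/+ mouse 2 remained the lowest of the 4 mice although its Adgre1 was the highest. The fewest Cx3cr1 reads in a cell that had any were 9 and 8 in the Abi3-/- pair and 9 and 11 in the Abi3+/+ pair.

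Other panel genes were set beside the 5 by their profile over 26 sums of reads, by mouse and class of microglia, macrophages, lymphocytes or neutrophils. The sums share libraries and total depth, and the correlations are descriptions. Closest to Cx3cr1 was Cmklr1, the chemerin receptor (Pearson's r = 0.97), and closest to Adgre1 was Tlr7, a receptor for single-stranded RNA (0.94). Closest to Entpd1 was Havcr2, which encodes TIM-3 (0.93), and closest to Cd34 was the chemokine gene Ccl4 (0.94). Over the 16 microglial sums alone, the pairs of Cx3cr1, Adgre1 and Entpd1 had r of 0.92, 0.96 and 0.83, while Cd34 and Ccl4 had -0.24. Among the 5 genes, Cx3cr1 and Selplg were most alike in microglia (0.93) and Cx3cr1 and Cd34 least (0.17).

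Lists of 13 other microglia genes and 11 other DAM genes were chosen with earlier results of these data known. The lists do not hold every such gene of the panel, on which the paper detected more markers of both kinds. Of the 13, 6 were lower and 4 higher with 3 than with 0 DAM genes in the edgeR test scaled by TMM. In that test 28.1% of the panel was called lower and 26.8% higher. The median of the 13 was -0.16 against -0.14 for all tested genes, and that of the 5 surface genes was -0.65. Maf, a transcription factor gene, changed by -1.34 on the log2 scale (adjusted p = 5.4e-05). Itgam, which encodes the CD11b chain of complement receptor 3, fell by 0.70 on the log2 scale. The 4 that were higher on the TMM scale were Lag3 by 0.58, Fcer1g by 0.52, Ly86 by 0.42 and Itgb2 by 0.18. On library size the median of all genes was -0.71, and Cd34 went from 0.35 to -0.22. The values of these 4 genes on that scale are not given, so their direction is stated for TMM only. All 11 listed DAM genes were higher, from Cd9 at 1.04 to Lilrb4a at 6.33, where 26.8% of the panel was called higher. Since the list was chosen with these data known, this is a description and no independent support for the classes.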

How the data were processed

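Single-cell libraries of 4 mice were made with the BD Rhapsody Mouse Immune Response Panel after enzymatic dissociation and myelin removal. BD Rhapsody's Targeted Analysis Pipeline was run by the authors with its default settings. Per the labels the genome build was mm10. The deposited values are DBEC read counts, that is, reads left after the distribution-based error correction of that pipeline. They are not molecules and were neither filtered by cell nor normalized. The 2 mice of a group are separate animals.

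Here cells with 40 or more genes with a read and within the study's upper limit on total reads were kept; the study states its lower limit in unique reads. No doublet caller was run, and 1 cell that met gates of several types was left out. A gate needed reads of 2 markers. Reads were summed per mouse and class (at least 10 cells) and tested with edgeR 4.0.16 (quasi-likelihood, filterByExpr, TMM) in R 4.3.3, with Benjamini-Hochberg adjustment over all tested genes other than those defining the classes, at 0.05. Alternatives were DESeq2 1.42.0, limma 3.58.1 on mean log2(reads per 10000 + 1), other scalings, gates and filters, thinning to 10000 reads (559 shallower cells left out) and leaving out each mouse. Reads per cell as the scale was added after the data were seen. Scripts were tested on simulated data. Correlations used log2(CPM + 1). Genes named in the text are the 5 members, the gene most like a member by Pearson correlation, and lists of microglia and DAM genes. Some items are not reported here. The members, lists and classes were chosen with earlier results of these data known. Promoters and coordinates came from RefSeq (GRCm38.p6), and the set of promoter windows used here held 3 of the 5 genes. Shares carry exact 95% binomial intervals, and the limit for a count of 0 is 3 counts.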

Additional observations from a re-analysis of the deposited data

Results flagged for a closer look

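In 6 of 71 within-mouse differences examined, both Abi3-/- mice went one way and both Abi3+/+ mice the other. None of the 6 was tested as such, with the exception given for Adgre1 per cell, and with 2 mice a group a split of this kind carries little weight. Adgre1 gave 4 of them, as differences between the genotypes' mean log2 changes (Abi3-/- minus Abi3+/+). In CPM these were 0.24 from 0 to 1 DAM gene, 0.24 for Apoe alone against none and 0.29 for Itgax alone against none. On mean reads per cell Adgre1 was higher in each mouse of both genotypes in these comparisons, so those splits depend on the scale. The remaining one was 0.84 in mean reads per cell from 0 to 3 DAM genes. The last had an adjusted p of 0.020 in the edgeR interaction with the number of cells as the scale. That scale was added after the data were seen. Scaled by TMM, the Adgre1 interaction had an adjusted p of 0.12 in edgeR. For Cx3cr1 in cycling against other microglia the difference was 0.69, with 0.10 and 0.05 in the Abi3-/- pair and -0.65 and -0.58 in the other pair, over 10 to 42 cycling cells in a mouse. For Cd34 in cells with Cst7 alone against none it was -0.15 in CPM, while on mean reads per cell Cd34 was higher in each mouse of both genotypes.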

How the results depend on the processing

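Of the 14 alternatives to the test of 3 against 0 DAM genes, all kept Cx3cr1, Selplg and Entpd1 lower and called, and values ran from -1.95 to -0.68 for Cx3cr1, -2.10 to -0.75 for Selplg and -1.51 to -0.35 for Entpd1. Cd34 turned to -0.22 on library size and -0.058 in limma (-0.082 and -0.035 per DAM gene). Adgre1 lost its call at -0.18 scaled without DAM genes, -0.21 in DESeq2 and -0.039 per cell (-0.072, -0.076 and -0.030 per DAM gene), and leaving out each mouse gave -0.45 to -0.20 (-0.15 to -0.076 per DAM gene). The cause was not tested. The called genes that were higher went from 48.8% to 27.1% on library size, to 39.3% in limma and to 64.8% per cell.

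In macrophages Cx3cr1 gained a call at -3.22 in DESeq2 and -3.86 in limma (-4.27 to -3.62 leaving out each mouse), and limma called Adgre1 (-1.35), making 5 of the surface genes called, where it called 119 of 333 panel genes. Per cell Adgre1 was 0.016, and a gate of 3 markers, with fewer cells, called 61 genes, against 129.

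For genotype in all microglia, library size turned Cx3cr1 to -0.039 and Selplg to -0.0040, and leaving out each mouse gave -0.32 to 0.77 and -0.25 to 0.48. Panel calls were 9 in DESeq2, 4 per cell and 0 to 3 leaving out each mouse. With 0 DAM genes DESeq2 called 15 genes, and Adgre1 as 1 of the 5 (-0.57), and leaving out each mouse gave 0 to 7 calls, -0.32 to 0.71 for Cx3cr1, -0.20 to 0.44 for Selplg and -0.029 to 0.46 for Cd34. With 3 DAM genes Entpd1 turned to 0.081 on library size, 0.19 in limma, 0.012 without a filter, 0.024 thinned and 0.060 per cell, Cd34 turned to -0.13 without an upper read limit, and leaving out each mouse gave 0 to 2 calls, -0.27 to 0.21 for Entpd1 and -0.043 to 0.17 for Cd34. The interaction called 15 genes scaled without DAM genes, 22 in DESeq2, 17 per cell, 7 with gates of 10 reads, and 0 on library size, in limma, without a filter, thinned and without an upper limit. Adgre1 was the 1 surface gene called, at 0.59, 0.60 and 0.83 in the first 3 of these, and leaving out each mouse gave 0 to 1 calls. Leaving out each mouse moved the genotype difference in shares of cells from -1.52 to 15.4 percentage points for Cx3cr1, -0.059 to 0.94 for Selplg, -6.34 to 1.10 for Entpd1, -5.73 to -0.15 for Adgre1 and 2.54 to 13.2 for Cd34.

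With the replicate number as a block the genotype tests called 0 genes in each class, and Adgre1 with 0 DAM genes had -0.60 (adjusted p = 0.20). Mice of the same number come from different animals; their deviations correlated at 0.18 over 328 genes. Where a genotype was left with 1 mouse, it was assumed to vary like the other group.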
